A study of Rattus norvegicus with 6 samples.

Results

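Fos (ENSRNOG00000008015), Jun (ENSRNOG00000026293) and Egr1 (ENSRNOG00000019422) are 3 immediate early genes among 34052 features of a table of RNA levels in cultured rat heart muscle cells. They were chosen by gene identity, through their Ensembl IDs, and not by a measured value, but with earlier results of these data known. The table pairs no symbols with IDs, so the symbols are those given with the 3 IDs when they were chosen. All 3 were found in the table, and all 3 passed the filter for testing, at least 1 FPKM in at least 3 libraries. FPKM is the number of fragments scaled by the counted length of the gene and by the total of the library.

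Immediate early genes are transcribed within minutes of a stimulus such as serum, stretch, calcium entry or oxidative stress, without new protein synthesis, and their messenger RNAs are short-lived. FOS and JUN proteins are leucine zipper transcription factors that pair as the dimer AP-1, in which JUN can also pair with itself while FOS cannot. EGR1 is a zinc finger transcription factor that binds GC-rich promoters. In heart muscle cells these genes are known for their fast induction by hypertrophic stimuli such as stretch and adrenergic agonists.

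The cells were ventricular cardiomyocytes isolated from newborn rats (strain and sex are not given in the labels) and kept in culture. Erastin libraries (3) came from cells exposed to 10 µM erastin for 24 h. Control libraries (3) are titled as controls, and the name of the deposited table calls them vehicle, without saying which vehicle was given. Erastin is an inhibitor of cystine import that deprives cells of glutathione and drives them towards ferroptosis, a death by iron-dependent oxidation of membrane lipids. The question was how the RNA levels of these genes differ after this treatment, at a single time point and dose. Such a culture can hold other heart cells. With IDs that match no symbol in the reference table used, markers of heart muscle or of other cell types were not examined, and the part of other cells in these results was not tested. Whether replicate libraries stem from independent cultures or litters is not stated in the labels, so the p-values speak only to the variation among these 6 libraries, some or all of which may be technical. The recovered depth was 11126968 to 14914827 reads per library, the highest in control replicate 2.

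Of the 3 genes, 1 was found by symbol in the RefSeq promoter table (build GRCr8), Egr1, and Fos and Jun are named only. The promoter of Egr1 is shown because it was the only 1 found. As background, immediate early genes are known for serum response elements, which serum response factor binds, upstream of their start. Whether such elements had a part in the rise of Egr1 was not tested. The stretch runs 5′ to 3′ over the 250 bases before the annotated gene start, at chr18:26736828-26737077 on the plus strand, with capitals marking matches to the CArG box, the core of a serum response element.
Egr1: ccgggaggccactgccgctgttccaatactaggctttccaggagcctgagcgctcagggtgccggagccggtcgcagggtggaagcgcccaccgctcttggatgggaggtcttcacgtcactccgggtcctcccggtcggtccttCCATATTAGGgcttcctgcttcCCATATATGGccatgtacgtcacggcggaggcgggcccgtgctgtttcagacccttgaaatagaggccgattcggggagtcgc
The first CArG match, CCATATTAGG, lies 105 to 96 bases before the start and the second, CCATATATGG, 83 to 74 bases before it. A CArG match on either strand was present in 1.5% of 27456 rat promoter stretches of the same length, and 2 or more matches in 0.0255% (7 promoters). The 6 letters TGACGT, part of the cyclic AMP response element TGACGTCA, matched at 2 places on the opposite strand, 136 to 131 and 67 to 62 bases before the start, and matched in 7.25% of the stretches. The whole element TGACGTCA, which contains those letters, had 0 matches here and was present in 1.70% of the stretches. The AP-1 site TGANTCA (6.36% of stretches) and the EGR site GCGNGGGCG (4.53%) also had 0 matches in this window. The motifs were searched on both strands and were picked after the sequence was seen. A match describes letters only, and binding was not measured.

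Egr1 and Jun were higher in erastin than in control libraries, and Fos did not pass the test in the deposited values. Egr1 was 2.86-fold and Jun 1.60-fold higher in mean FPKM, while Fos stood at 0.927 of its control mean. Thus 2 of 3 genes rose and 1 did not pass a Benjamini-Hochberg adjusted p of 0.05 in limma, a linear model fitted to log2(FPKM + 1) of all 13576 tested features. In that comparison 66.4% of all tested features passed, 42.3% as higher and 24.1% as lower, so a change in either direction was common in these cells. The median log2 fold change was 0.66 for the 3 genes, which is the value of Jun itself, and 0.13 for all tested features. It does not describe the 3 genes as a set, since Fos was at -0.11. In RNA from bulk cultures, fewer cells of a type and less RNA per cell cannot be told apart.

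**Figure D1:**
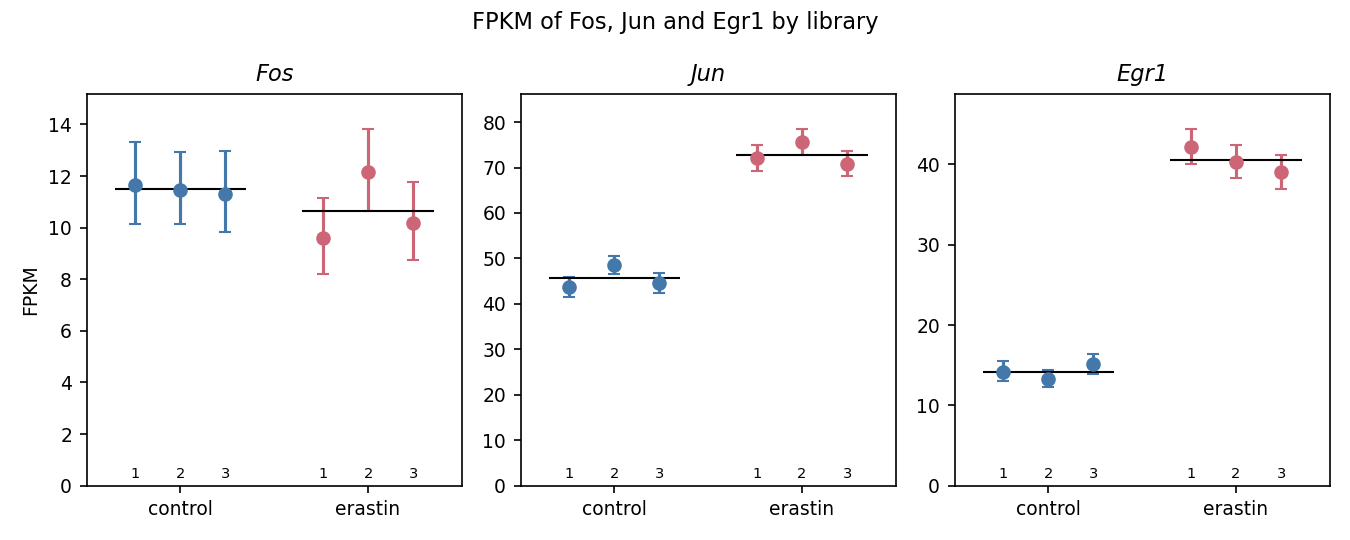
FPKM of Fos, Jun and Egr1 in each library (vertical axes, starting at 0), with control replicates 1 to 3 in blue and erastin replicates 1 to 3 in red. Vertical bars are exact Poisson 95% intervals of the reads and cover counting error only, and horizontal lines are group means. The groups are apart for Jun and Egr1 and overlap for Fos, where erastin replicate 2 is the highest of the 6 libraries.

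Egr1, the zinc finger factor, had the largest fold change of the 3 genes. It was at 14.2, 13.3 and 15.1 FPKM in control replicates 1, 2 and 3 and at 42.2, 40.3 and 39.0 FPKM in erastin replicates 1, 2 and 3. Every erastin library lay above every control library, and the lowest erastin value was more than the sum of any pair of control values. The means were 14.2 ± 0.922 FPKM in control and 40.5 ± 1.58 FPKM in erastin libraries (SD, n = 3 each). The log2 fold change was 1.45 (SE 0.056, 95% interval 1.32 to 1.58, limma adjusted p = 3.03e-07), and 300 of the 13576 tested features (2.21%) had a larger increase. These levels rested on 511 to 619 reads in control and 1360 to 1515 reads in erastin libraries.

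Jun, the AP-1 subunit that can pair with itself, rose by a smaller fold than Egr1, from a higher level. It was at 43.7, 48.5 and 44.6 FPKM in control replicates 1, 2 and 3 and at 72.1, 75.6 and 70.8 FPKM in erastin replicates 1, 2 and 3. The groups did not overlap for Jun either, and replicate 2 was the highest library in both groups. The means were 45.6 ± 2.55 FPKM in control and 72.8 ± 2.46 FPKM in erastin libraries (SD, n = 3 each). The log2 fold change was 0.66 (SE 0.049, 95% interval 0.55 to 0.78, limma adjusted p = 8.65e-06), and 13.1% of tested features had a larger increase. Jun had 1555 to 2235 reads in control and 2435 to 2806 reads in erastin libraries. Groups that do not overlap, as for Jun and Egr1, were found in 72% of all tested features, 45.7% with erastin higher and 26.3% with erastin lower.

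Fos, the AP-1 subunit that needs a partner of the JUN family, was the lowest of the 3 genes. It was at 11.6, 11.5 and 11.3 FPKM in control replicates 1, 2 and 3 and at 9.60, 12.1 and 10.2 FPKM in erastin replicates 1, 2 and 3. The groups overlapped, since 2 erastin libraries lay below all control libraries and erastin replicate 2 lay above them. The means were 11.5 ± 0.163 FPKM in control and 10.6 ± 1.34 FPKM in erastin libraries (SD, n = 3 each). The log2 fold change was -0.11 (SE 0.082, 95% interval -0.30 to 0.08, limma adjusted p = 0.285). That interval leaves out a rise of the size found for Jun or Egr1 on the same scale. It speaks to the level at 24 h only, and earlier levels of the 3 genes were not measured.

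The observed spread of Fos was smaller among the 3 control than among the 3 erastin libraries, a difference that was not tested. Its coefficient of variation was 1.42% in control libraries, below the 6.63% that counting error alone gives at 207 to 272 reads, and 12.6% in erastin libraries, against 7.25% from counting at 170 to 232 reads. The exact Poisson 95% interval of erastin replicate 2, 10.6 to 13.8 FPKM, overlapped those of erastin replicate 1 (8.21 to 11.2 FPKM) and erastin replicate 3 (8.75 to 11.8 FPKM). For Jun the coefficients of variation were 5.59% and 3.38% in control and erastin libraries, against 2.40% and 1.97% from counting. For Egr1 they were 6.50% and 3.90%, against 4.25% and 2.63%. These intervals and counting errors treat reads as independent molecules and cover counting error only.

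The call for Fos depended on the scaling of the libraries and on a single library. FPKM is relative to the library total, and the typical tested feature was 0.13 higher in erastin libraries on the log2 scale. With each library centred on its median log2 ratio, the log2 fold change of Fos was -0.24 (limma adjusted p = 0.0349), which passed as a fall, while Jun and Egr1 stayed higher at 0.54 and 1.32 (limma adjusted p = 3.78e-05 and 4.99e-07). On this scale 4253 features rose and 4287 fell, against 5744 and 3267 as deposited. Without erastin replicate 2, the highest erastin library, the deposited values gave -0.20 for Fos (limma adjusted p = 0.0263). Without erastin replicate 1 or 3 they gave -0.042 and -0.081 (limma adjusted p = 0.676 and 0.491). Leaving out the highest erastin library lowers the erastin mean by construction, so that fit is no separate support for a fall. With centring and 1 library left out, an alternative added after the first fits to the table, Fos lay between -0.33 and -0.17 and passed in 1 of 6 cases, without erastin replicate 2 (limma adjusted p = 0.0032), with adjusted p up to 0.109 in the others.

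**Figure D2:**
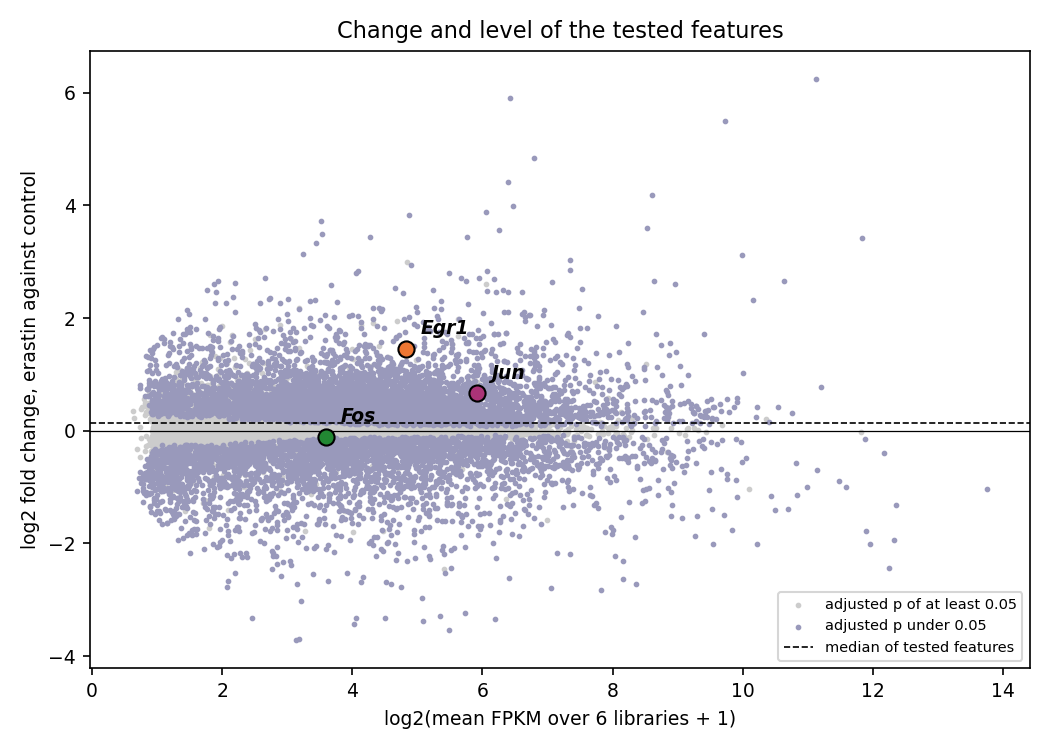
Log2 fold change of each of 13576 tested features, erastin against control (vertical axis), against log2 of its mean FPKM over 6 libraries plus 1 (horizontal axis), with lilac points at an adjusted p under 0.05 and grey points above it. The dashed line is the median of all tested features, 0.13. Egr1 at 1.45 and Jun at 0.66 lie above that line and Fos at -0.11 below it.

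**Figure D3:**
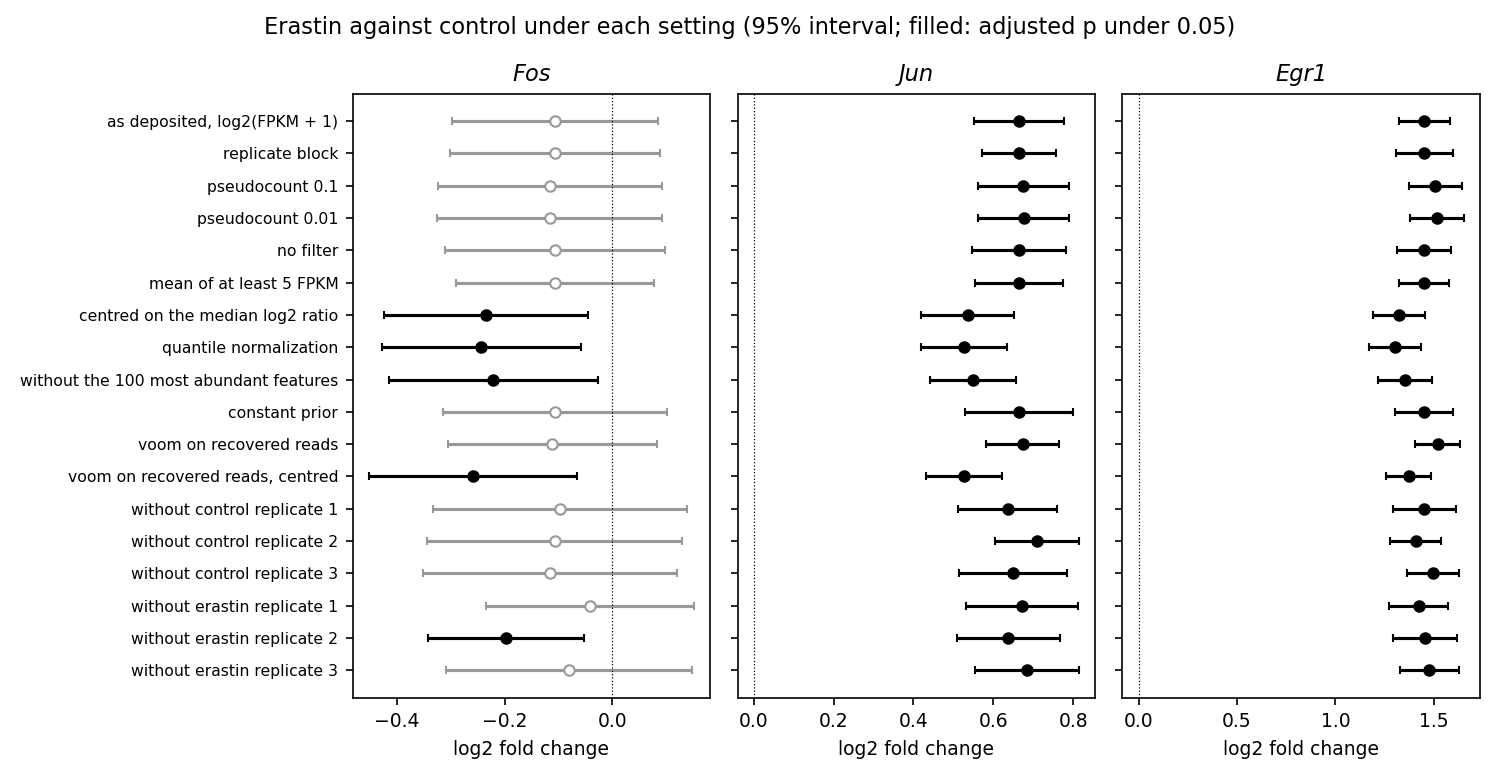
Log2 fold change of each gene (horizontal axes) under each setting (rows), with 95% intervals from limma and filled points at an adjusted p under 0.05. Jun and Egr1 are filled and above 0 in every row, while Fos is below 0 in every row and filled in 5 of 18 rows, 4 that rescale the libraries and 1 without erastin replicate 2.

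Per unit of length, the order of the 3 genes was the same in both groups, with Jun highest, Egr1 next and Fos lowest in all 6 libraries. In control libraries Egr1 and Fos were close, at 13.3 to 15.1 and 11.3 to 11.6 FPKM, without overlap of their values. In erastin libraries the same genes were far apart, at 39.0 to 42.2 and 9.60 to 12.1 FPKM. Among 13576 tested features ranked by mean FPKM, Jun moved from rank 2083 in control to 1387 in erastin libraries and Egr1 from 6030 to 2652. Fos went from rank 6815 to 7475, near the middle of all features in both groups. The counted lengths behind these values were 3089 bases for Jun, 3130 for Egr1 and 1589 for Fos.

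The proportions of the 3 messenger RNAs within a library differed between the groups, a measure in which the library total divides out of the FPKM ratio. The FPKM of Jun was 3.76, 4.23 and 3.94 times that of Fos in control replicates 1, 2 and 3 and 7.51, 6.22 and 6.96 times in erastin replicates 1, 2 and 3. The messenger RNA levels of Jun and Fos were thus less even in every erastin library than in any control library. The mean ratio went from 3.97 ± 0.238 to 6.90 ± 0.647 with erastin (SD, n = 3 each). Protein was not measured and other AP-1 subunits were not examined, so the make-up of AP-1 was not tested. On the log2(FPKM + 1) scale the ratio of Fos to Jun fell by 0.77 (exact two-sided permutation p = 0.1). The smallest p that 3 against 3 libraries can give is 0.1, so no ratio could pass 0.05.

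Egr1 came closer to Jun and moved away from Fos. The FPKM of Jun was 3.08, 3.66 and 2.95 times that of Egr1 in control replicates 1, 2 and 3 and 1.71, 1.88 and 1.81 times in erastin replicates 1, 2 and 3. The log2 ratio of Egr1 to Jun was higher in erastin libraries by 0.79 (exact two-sided permutation p = 0.1), with no overlap between groups. The FPKM of Egr1 was 1.22, 1.16 and 1.33 times that of Fos in control replicates 1, 2 and 3 and 4.40, 3.32 and 3.84 times in erastin replicates 1, 2 and 3. The log2 ratio of Fos to Egr1 fell by 1.56 (exact two-sided permutation p = 0.1), again without overlap. Groups that do not overlap were found in 72% of single tested features, and their share among ratios of other genes was not computed. The adjusted p over the 3 ratios was 0.1 for each by exact permutation. On the log2(FPKM + 1) scale each ratio change is the difference between the log2 fold changes of its genes. The 3 ratios thus restate those values and are no separate support.

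**Figure D4:**
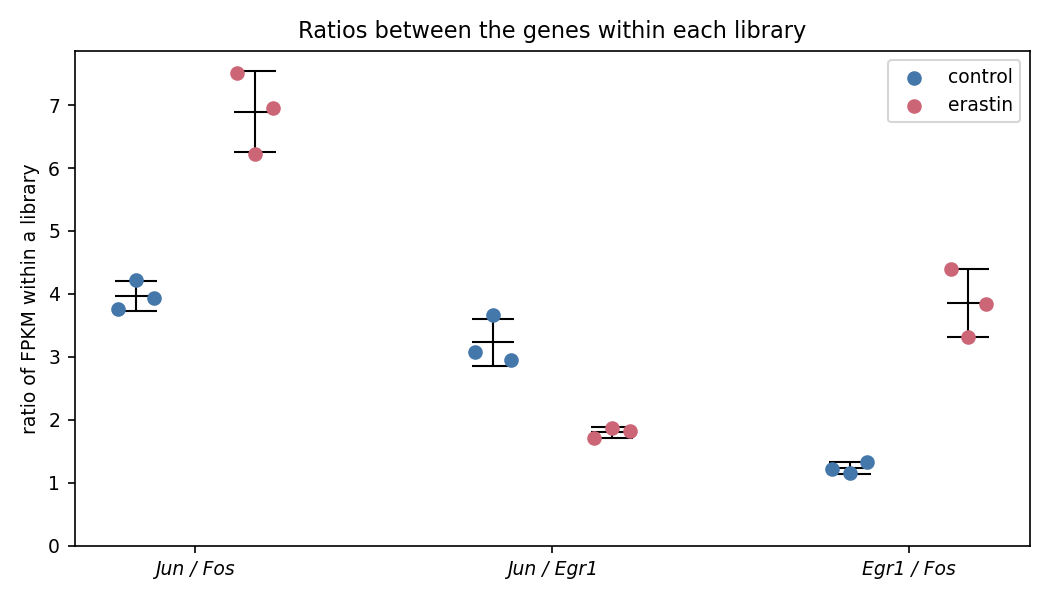
Ratio of the FPKM of 2 genes within a library (vertical axis, starting at 0) for each pair of genes, with control libraries in blue and erastin libraries in red, and black marks for the mean and SD (n = 3). The groups are apart for each pair, and how often this holds for other gene pairs was not computed. Jun over Fos and Egr1 over Fos are higher in erastin libraries, and Jun over Egr1 is lower.

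Features whose FPKM followed each gene most closely were sought by Pearson's r of log2(FPKM + 1) over the 6 libraries, among 6731 Ensembl-numbered features at or above the median level. For Fos the closest was ENSRNOG00000052721 (r = 0.990), with 14.9, 14.6 and 14.6 FPKM in control replicates 1, 2 and 3 and 13.7, 15.1 and 14.1 FPKM in erastin replicates 1, 2 and 3. It was picked for the highest r of 6731 features over 6 libraries, so its likeness to Fos follows from the choice. Whether the 2 vary together beyond that choice was not tested. It did not pass the test of erastin against control (log2 fold change -0.04, limma adjusted p = 0.53). For Jun the closest was ENSRNOG00000004791 (r = 0.9997), which went from 79.9 ± 3.64 to 122 ± 3.42 FPKM (SD, n = 3 each). For Egr1 it was ENSRNOG00000003980 (r = 0.9997), which went from 34.1 ± 0.951 to 55.0 ± 0.762 FPKM (SD, n = 3 each). An r over 0.9 was common for Jun (43.0% of these features) and Egr1 (44.3%) and rare for Fos (0.163%, 11 features). The median level was 12.5 FPKM, above the means of Fos in control (11.5 FPKM) and erastin libraries (10.6 FPKM). Features at or below the level of Fos were thus not searched. The 6 points fall into 2 groups, so for Jun and Egr1 r mostly reports the difference between the groups, and all values of a library share its total.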

How the data were processed

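Poly(A)-selected RNA of 3 control and 3 erastin libraries was sequenced as strand-marked paired ends, per the labels' protocols, and libraries were grouped by title. The authors deposited 1 table of FPKM with 1 column per library. The submitters' processing notes list HISAT2 2.0.5 and DESeq2 without saying what each was used for. The build, the gene annotation and the read counter were not given in the sources used here. All 3 genes, the gene lists and the alternatives were chosen with earlier results of these data known.

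Features that reached 1 FPKM in 3 or more libraries were tested on log2(FPKM + 1) with limma 3.58.1 (R 4.3.3), using a trended, robust prior and Benjamini-Hochberg adjustment over all 13576 features. Fold changes on this scale understate those of low features. The fit was tested on 3 simulated data sets, in which far fewer features changed than were called here. The share of false calls there was 9.6%, above the nominal level, so calls close to the threshold are less firm. That share need not hold for these data. In the simulated data, changes of 1.5-fold were recovered in 57.7% of cases and changes of 2-fold in 96.0%, so a small change can be missed. The simulated spread among libraries was a set value, not taken from these data. The shares recovered need not hold for these data either. Whole reads were recovered from the FPKM steps. All 81053 values above 0 of tested features were whole within a relative tolerance of 1e-06. The recovered reads were used for library totals, counting error and a voom alternative. Gene lists and cell type markers were fixed by symbol, and the GRCr8 gene table matched 0 of the 34052 IDs, so they were not analysed here. Named features were the 3 genes and, for each, the Ensembl-numbered feature with the highest r. At most 2 unnamed IDs in each direction were to be printed. Promoter sequence is from RefSeq, GRCr8.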

Additional observations from a re-analysis of the deposited data

How the results depend on the processing

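Jun and Egr1 were higher, with a limma adjusted p under 0.05, under all 23 alternatives run, of which 6 (centring with 1 library left out) were added after the first fits to the table, with log2 fold changes of 0.50 to 0.71 and 1.28 to 1.52. Fos stayed below 0 in all 23 and passed the adjusted p in 6. It was at -0.24 with centring, -0.24 with quantile normalization, -0.22 without the 100 most abundant features, -0.26 with voom on recovered reads and centring, and between -0.20 and -0.042 with 1 library left out, of which the case without erastin replicate 2 passed. With centring and 1 library left out it lay between -0.33 and -0.17. Fewer samples enter each of those fits. Apart from scaling and left-out libraries, the cause of these differences was not tested. The number of changed features was 1344 when a log2 fold change of 1 or more in size was also required, by construction, and 7230 to 9308 otherwise. The 3 ratios kept their direction in all 9 alternatives each. They lay at -0.84 to -0.71 for Fos to Jun, 0.70 to 0.85 for Egr1 to Jun and -1.65 to -1.46 for Fos to Egr1. Since the ratios largely restate the log2 fold changes of the genes, their stability is no separate support.

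With the replicate block, 8768 features changed against 9011 without it, and the log2 fold changes were -0.11 for Fos (adjusted p = 0.279 in limma), 0.66 for Jun and 1.45 for Egr1, with no call changed. The labels do not pair libraries of the same number, and their deviations correlated at -0.03, 0.07 and 0.03, against -0.07 to 0.04 between different numbers. At 170 to 272 reads per library, counting error alone gave Fos a coefficient of variation of 6.63% in control and 7.25% in erastin libraries.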
